A study of Rattus norvegicus with 18 samples.

Results

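The genes described here are 8 regulators and transcriptional targets of the tumour suppressor p53: Mdm2, Mdm4, Cdkn1a, Bax, Ccng1, Gadd45a, Gadd45b and Gadd45g. They were measured by RNA-Seq in the dorsal hippocampus of rats, as 8 of 38445 genes listed. They were taken by symbol and were chosen by their scaled CPM in each treatment group of these rats, which was already known, so their levels and fold changes are given as a description. Counts of members that passed a threshold in the fit over all genes are given in the same way, and none is a test of the members. The 18 animals were adult male Sprague Dawley rats, 75 to 85 days old at purchase, which were housed individually and pair fed a Lieber-DeCarli liquid diet. The control group (6 rats) stayed on the control diet, the ethanol group (6 rats) was killed on the diet with 9% ethanol after 16 days at that dose, and the withdrawal group (6 rats) had 15 days of 9% ethanol and was then returned to control diet for 24 h. Both ethanol-fed groups were first brought up to that dose over 7 days, and tissue was taken at 1 time point per group, from males only.

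p53 is a transcription factor that is held at a low level by MDM2, a ubiquitin ligase that marks it for degradation, and by MDM4, which binds and blocks its activating domain. DNA damage and other stresses free it from both, and it then switches on genes that stop the cell cycle, repair DNA or start apoptosis, among them Mdm2 itself. In the brain these genes are also transcribed independently of p53, and the Gadd45 genes respond to neuronal activity, stress hormones and cytokines.

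Between 30873228 and 42679748 read pairs were assigned to genes per rat, and the medians of the groups were 35298097 (control), 35649217 (ethanol) and 39044532.5 (withdrawal). Levels are given as CPM, the count of a gene divided by the scaled size of its library, and a gene was tested where it exceeded 0.5 CPM in at least 1 rat, which left 17853 genes, with all 8 members among them. The library indexes fall into 3 sets, 1 with all 6 control rats, 1 with the 6 ethanol rats and withdrawal rats 1 and 2, and 1 with withdrawal rats 3 to 6, so index set and diet cannot be told apart in any comparison with the control rats. Markers of neurons summed to between 5080 and 7530 CPM in all rats, and 6 of 7 dorsal hippocampal markers were measured, with Fibcd1 at or near 0. The libraries held unequal amounts of neighbouring tissue: 7 choroid plexus markers, of which Otx2 was at or near 0, summed to between 1060 and 2200 CPM in control rats, 1390 and 5210 in ethanol rats and 30.2 and 5220 in withdrawal rats. In bulk tissue, fewer cells of a type and less RNA per cell cannot be told apart.

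Among the members, the promoters of Cdkn1a, Ccng1 and Gadd45a held a match to the p53 half-site, the 10-base element that p53 binds in pairs. RefSeq windows of assembly GRCr8, from 250 bases before to 50 bases after the gene start, were found for 7 of the 8 members (Bax had none), and both strands were searched. The half-site was present in 3 of the 7 windows and in 7.98% of all 33469 windows. No member held a pair of exact matches within 13 bases, as 0.0598% of all windows did. Only exact matches to RRRCWWGYYY (R is A or G, W is A or T, Y is C or T) were counted. In Cdkn1a the bases directly after the half-site match that pattern except in the first base, and such near matches were not counted. These 3 windows are shown because they carry that element, and that of Gadd45g because this gene had the clearest separation between groups and a different promoter, with a TATAAA box. Capitals mark the p53 half-site, CCAAT on either strand (ATTGG when on the other strand) and TATAAA.
Cdkn1a (chr20:7150682-7150981, plus strand): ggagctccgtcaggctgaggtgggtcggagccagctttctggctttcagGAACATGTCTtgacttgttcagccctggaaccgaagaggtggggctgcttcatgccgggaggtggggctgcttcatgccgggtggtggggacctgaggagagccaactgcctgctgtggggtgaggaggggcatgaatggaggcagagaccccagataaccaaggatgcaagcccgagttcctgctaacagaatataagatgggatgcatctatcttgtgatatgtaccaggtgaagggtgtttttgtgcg
Ccng1 (chr10:25684827-25685126, minus strand): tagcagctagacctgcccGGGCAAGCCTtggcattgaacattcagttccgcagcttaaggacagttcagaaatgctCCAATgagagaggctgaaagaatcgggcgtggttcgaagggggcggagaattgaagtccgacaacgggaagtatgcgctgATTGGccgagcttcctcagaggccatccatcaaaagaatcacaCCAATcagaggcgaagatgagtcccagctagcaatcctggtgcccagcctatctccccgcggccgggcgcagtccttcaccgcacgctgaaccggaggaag
Gadd45a (chr4:97486750-97487049, minus strand): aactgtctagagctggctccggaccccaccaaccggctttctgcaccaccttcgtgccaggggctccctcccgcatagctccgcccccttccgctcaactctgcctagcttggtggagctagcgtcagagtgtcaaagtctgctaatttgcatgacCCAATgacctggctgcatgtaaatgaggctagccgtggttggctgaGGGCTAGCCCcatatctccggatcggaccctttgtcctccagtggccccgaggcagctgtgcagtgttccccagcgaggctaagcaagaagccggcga
Gadd45g (chr17:13530302-13530601, minus strand): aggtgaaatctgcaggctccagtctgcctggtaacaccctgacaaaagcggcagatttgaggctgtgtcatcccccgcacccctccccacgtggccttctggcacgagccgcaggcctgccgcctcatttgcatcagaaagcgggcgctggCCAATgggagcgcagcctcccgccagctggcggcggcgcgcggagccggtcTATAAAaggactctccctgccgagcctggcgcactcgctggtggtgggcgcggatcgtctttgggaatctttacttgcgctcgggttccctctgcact
The half-site started 201 bases before the gene start in Cdkn1a, 232 bases before it in Ccng1 and 48 bases before it in Gadd45a. Across all windows, CCAAT was present in 37.5% and TATAAA in 14.2%. A match of letters is a description of the window and no evidence of binding.

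Relative to gene length, Ccng1 was the most abundant of the 8 transcripts in control rats. Its level per kilobase of exon was 89.5 ± 6.77 CPM per kb (SD, n = 6). It was followed by Mdm4 at 28.4 ± 1.59, Bax at 23.7 ± 1.43 and Mdm2 at 13.7 ± 0.516 CPM per kb, each clear of its neighbours' spread. The 4 lowest were Gadd45b (7.81 ± 0.802), Cdkn1a (7.02 ± 1.26), Gadd45g (6.19 ± 0.679) and Gadd45a (5.17 ± 0.574 CPM per kb), and neighbours in that order did not differ beyond their spread.

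In the withdrawal versus control comparison, 3 of the 8 members passed the threshold of q < 0.1 (limma-voom with 3 surrogate variables), all higher in withdrawal: Mdm2, Cdkn1a and Gadd45g. Of all genes tested, 5.41% passed in that comparison, and since the members were chosen with these data known, nothing is read from the difference. In ethanol versus control 0 of 8 passed (background 0.493%), and in withdrawal versus ethanol 0 of 8 (background 2.72%). At an unadjusted p under 0.05 the counts were 4 and 1 of 8, where 12.5% and 16.7% of all genes tested were under it. With the same surrogate variables edgeR and DESeq2 also called 0 of 8 in both comparisons. Of all 17853 genes tested, edgeR called 96 and 532 there, and DESeq2 473 and 1176. The 3 calls rest on the surrogate variables, since without them 0 of 8 members passed in any comparison. Without them few of all 17853 genes passed either: 41 in withdrawal versus control, 50 in ethanol versus control and 621 in withdrawal versus ethanol. The number of calls also changed with the rats included. It fell to 0 without withdrawal rat 6, where the calls over all genes fell from 965 to 23, to 1 without any of the 6 control rats or without withdrawal rat 1 or 5, and to 2 without ethanol rat 3 or 5 or withdrawal rat 3 or 4. In the fits with 1 or 2 members called, between 428 and 1135 of all genes passed. Gadd45g was called in 17 of these 18 fits, Cdkn1a in 9 and Mdm2 in 5. The log2 fold changes over the 18 fits ranged from 0.55 to 0.80 for Gadd45g, from 0.40 to 0.68 for Cdkn1a and from 0.13 to 0.18 for Mdm2.

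**Figure D1:**
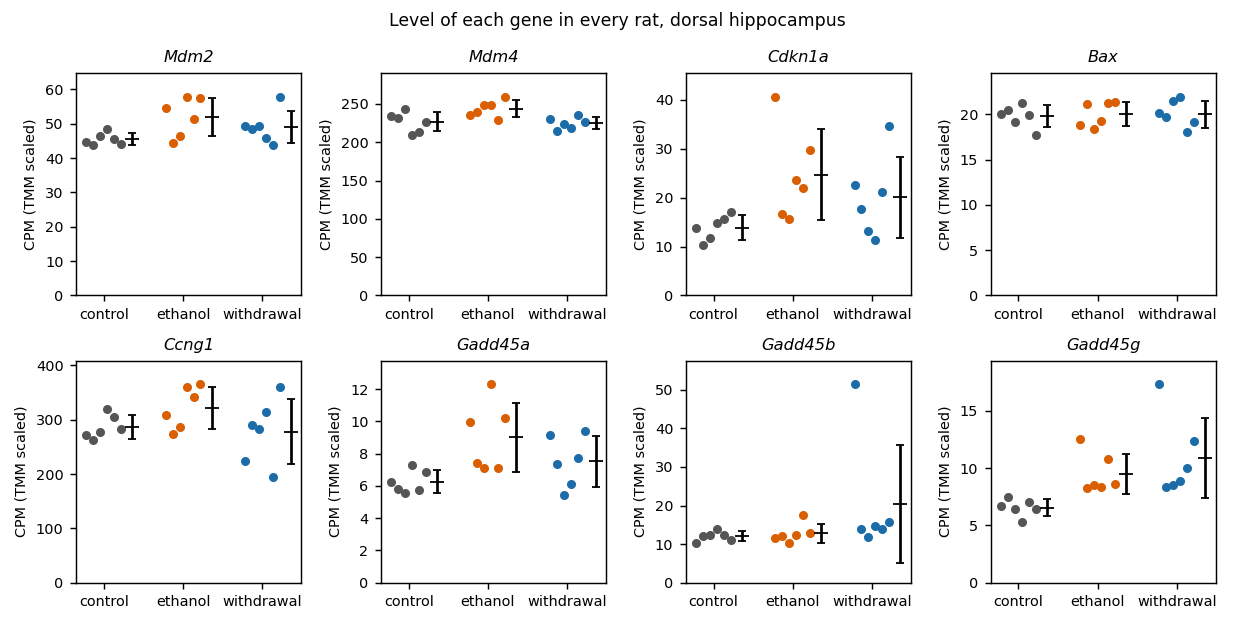
Level of each of the 8 members in every rat (dots, in replicate order) with the group mean ± SD (black bars, n = 6), in CPM on axes that start at 0. Gadd45g is higher in all 12 rats with ethanol exposure than in any control rat, and Gadd45b stands far above the rest in withdrawal rat 1 (51.4 CPM).

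Gadd45g, which lies at chr17:13391474-13393219 (Rnor_6.0, minus strand), encodes a small acidic protein that binds the stress kinase MAP3K4 and takes part in growth arrest and DNA demethylation. Its level was 5.34, 6.56 and 7.49 CPM (lowest, median and highest) in control rats. In ethanol rats it was 8.29, 8.53 and 12.5 CPM, and in withdrawal rats 8.34, 9.45 and 17.3 CPM. All 12 rats with ethanol exposure were above all 6 control rats, which held for 0.0840% of the genes tested. Against control the log2 fold change was 0.45 ± 0.18 (SE) in ethanol and 0.70 ± 0.16 in withdrawal, or 0.51 ± 0.17 and 0.66 ± 0.17 without surrogate variables. The difference between withdrawal and ethanol was 0.25 ± 0.17, with 5 of 6 withdrawal rats inside the range of the ethanol rats. Gadd45g was the only member whose groups did not overlap, in ethanol versus control (background 1.39%) and in withdrawal versus control (background 1.07%), and 0 of 8 members were separated in withdrawal versus ethanol (background 1.20%).

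Markers of several other cell types differed between the same groups. Of 5 blood markers listed 4 were matched, with the haemoglobin genes Hbb and Hba-a2 the highest. They summed to between 78.9 and 142 CPM in control rats, 23.2 and 56.2 in ethanol rats and 23.9 and 89.9 in withdrawal rats, and all 3 that were tested were lower in both comparisons with control. Endothelial markers summed to between 261 and 330, 284 and 338, and 280 and 367 CPM in the same order, and 3 of 7 were higher in withdrawal than in control. Astrocyte markers summed to between 2890 and 3260, 2470 and 3270, and 2410 and 3990 CPM. Of these 7 markers 2 were higher and 2 lower in withdrawal than in control, and the sum was between 3590 and 3990 CPM in 5 of 6 withdrawal rats, above all control rats, and lowest of all in withdrawal rat 5. Calls in withdrawal versus control were also made for 1 of 6 pericyte and vascular smooth muscle markers (higher), 3 of 5 oligodendrocyte precursor markers (2 higher, 1 lower) and 1 of 6 dorsal hippocampal markers (lower).

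Over the 18 rats, summed blood markers ran against all 8 members, with r from -0.219 (Mdm4) to -0.716 (Gadd45g). For the 3 called members r was -0.716 for Gadd45g (rho = -0.802), -0.659 for Mdm2 (rho = -0.641) and -0.551 for Cdkn1a (rho = -0.463), and without control rats 1 and 6 it was -0.665, -0.605 and -0.557. With endothelial markers r was 0.622 for Gadd45g (rho = 0.476), 0.472 for Cdkn1a (rho = 0.511) and 0.145 for Mdm2 (rho = 0.0733), and 0.364, 0.454 and 0.157 without control rat 4 and withdrawal rat 1. With astrocyte markers r was 0.0505, -0.406 and 0.00386 for Gadd45g, Cdkn1a and Mdm2, and with choroid plexus markers it was -0.0106 for Gadd45g (rho = 0.112). These values describe rats that share diet groups and index sets. The part of these cell types in the levels of the members was not tested.

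Cdkn1a, at chr20:6348422-6358864 (Rnor_6.0, plus strand), encodes p21, the inhibitor of cyclin-dependent kinases through which p53 halts the cell cycle. Control rats had 10.4, 14.3 and 17.1 CPM (lowest, median and highest). Ethanol rats had 15.6, 22.8 and 40.6 CPM, and withdrawal rats 11.3, 19.5 and 34.6 CPM. The mean was therefore higher in ethanol (24.7 ± 9.30 CPM, SD, n = 6) than in withdrawal (20.1 ± 8.33) and control (13.9 ± 2.5), with 4 of 6 ethanol and 4 of 6 withdrawal rats above all control rats. The groups overlapped, and the spread within both ethanol-fed groups was over 3 times that of the control rats.

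The fitted fold changes of Cdkn1a depend on the surrogate variables. With them the log2 fold change against control was 0.39 ± 0.19 (SE) in ethanol and 0.57 ± 0.17 in withdrawal, and withdrawal was above ethanol by 0.18 ± 0.18. Without them the values were 0.77 ± 0.27 and 0.46 ± 0.27, and withdrawal was below ethanol by 0.32 (log2 fold change -0.32 ± 0.25). The order of the ethanol-fed groups therefore turns with this choice, while both stayed above control. The member with the next largest shift was Gadd45a.

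**Figure D2:**
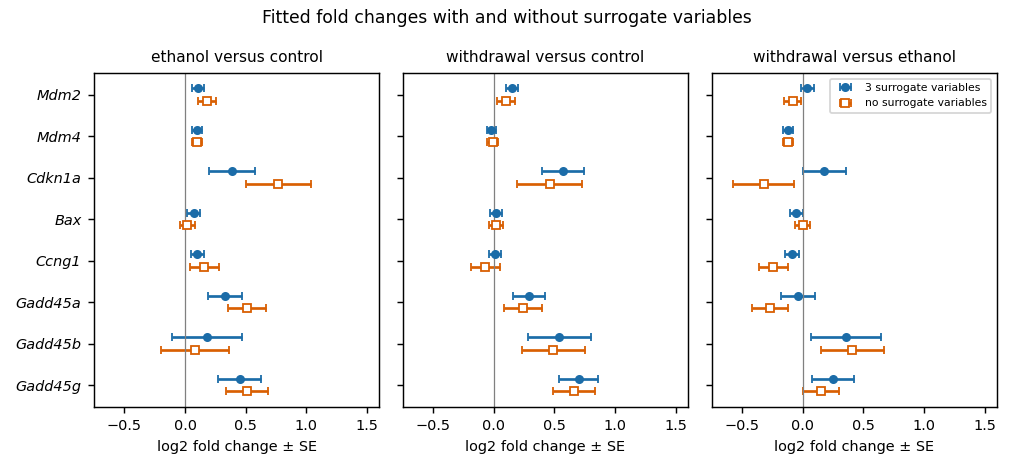
Log2 fold change ± SE of the 8 members in the 3 comparisons, from the fit with 3 surrogate variables (filled circles) and the fit without them (open squares). Cdkn1a moves from 0.39 to 0.77 in ethanol versus control and from 0.18 to -0.32 in withdrawal versus ethanol when they are left out, whereas Mdm4 and Gadd45g stay close to their values.

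The 3 rats with the highest Cdkn1a were also the 3 with the highest choroid plexus markers. These were ethanol rat 1 (40.6 CPM of Cdkn1a and 5210 CPM of summed markers), withdrawal rat 6 (34.6 and 5220 CPM) and ethanol rat 6 (29.8 and 4830 CPM). Over all 18 rats the correlation on the log2 scale was r = 0.403 and rho = 0.575, and r = 0.808 without withdrawal rats 4 and 5, whose markers were near 30 CPM. The points share diet groups and index sets, and the values are a description. In the same terms r without those 2 rats was 0.823 for Mdm2, 0.754 for Ccng1 and 0.709 for Gadd45a, against 0.283 for Gadd45g, 0.223 for Mdm4, -0.0729 for Bax and -0.195 for Gadd45b. Thalamic markers also ran highest in ethanol rat 1 (1090 CPM, against at most 638 in every other rat), and their correlation with Cdkn1a was r = 0.652 over 18 rats and 0.425 without ethanol rats 1 and 4. The first surrogate variable followed the choroid plexus markers (r = 0.756, rho = 0.934), and the second followed the neuronal markers inversely (r = -0.951). None of the 6 choroid plexus markers tested passed q < 0.1 in any comparison, in the fit that holds these surrogate variables. Since the first of them follows the markers, this does not show that choroid plexus content was equal between groups. The mean of Ttr was 1480 CPM in control, 2760 in ethanol and 1550 in withdrawal rats. The part of choroid plexus in the levels of the members was not tested.

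**Figure D3:**
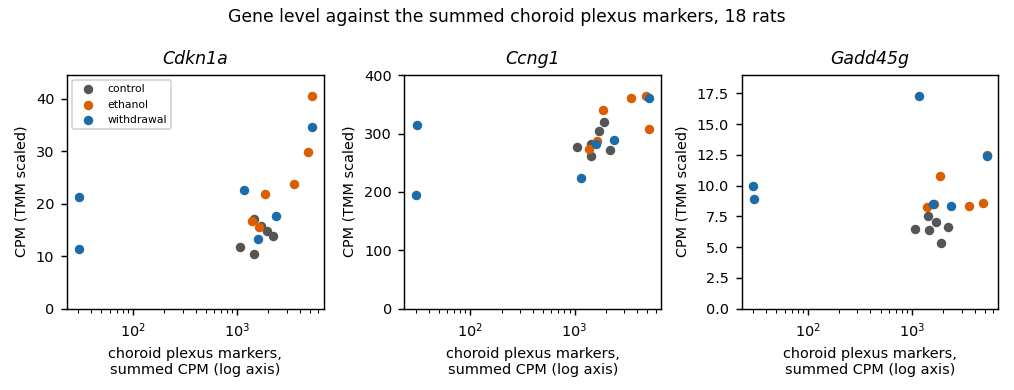
CPM of Cdkn1a, Ccng1 and Gadd45g in each of the 18 rats (dots coloured by group) against the summed CPM of the choroid plexus markers on a log axis. The highest Cdkn1a values (40.6, 34.6 and 29.8 CPM) sit at the highest sums, and withdrawal rats 4 and 5 stand apart on the left near 30 CPM.

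When the 3 rats with the highest choroid plexus sums were left out, Cdkn1a was higher than control by 0.40 (log2 fold change) in ethanol and by 0.38 in withdrawal, and withdrawal and ethanol differed by -0.02. Gadd45g was then higher by 0.45 and 0.51. When withdrawal rats 4 and 5 were left out instead, the values were 0.30 and 0.28 for Cdkn1a and 0.34 and 0.39 for Gadd45g. 0 of 8 members were called in either fit (limma-voom, 3 surrogate variables), among 0 and 27 of all genes in withdrawal versus control. Both fits were added after the levels of these rats were seen.

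Gadd45a, at chr4:97782512-97784814 (Rnor_6.0, minus strand), is a further target that p53 binds, and its protein acts in cell cycle arrest and DNA repair. Its level was 5.57, 6.05 and 7.32 CPM in control rats, 7.09, 8.70 and 12.3 CPM in ethanol rats and 5.42, 7.54 and 9.39 CPM in withdrawal rats. In ethanol 4 of 6 rats were above all control rats, and in withdrawal 4 of 6, with 1 withdrawal rat below them all. Against control it differed by a log2 fold change of 0.33 ± 0.14 in ethanol and 0.29 ± 0.13 in withdrawal, and 0.51 ± 0.16 and 0.24 ± 0.16 without surrogate variables.

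Gadd45b, the member of the family known as an activity-induced gene in neurons, lies at chr7:11646283-11648338 (Rnor_6.0, minus strand). Control rats had 10.3, 12.3 and 13.9 CPM, ethanol rats 10.4, 12.3 and 17.6 CPM, and withdrawal rats 11.9, 14.4 and 51.4 CPM. In withdrawal 5 of 6 rats were above all control rats, and in ethanol 1 of 6. A single library, withdrawal rat 1, held the value of 51.4, and the next withdrawal rat had 15.8 CPM. The withdrawal mean was 20.3 CPM with that rat and 14.1 CPM without it, against 12.1 in control rats. The log2 fold change of withdrawal against control was 0.54 ± 0.26, and it was 0.19 without that rat. In the fit without withdrawal rats 4 and 5, which estimated its own 3 surrogate variables, it was -0.01. The withdrawal rats left in that fit had between 11.9 and 51.4 CPM, and the control rats between 10.3 and 13.9 CPM. Withdrawal rat 1 also had the highest Gadd45g of all rats (17.3 CPM), and without it Gadd45g was still higher in withdrawal than in control by 0.55.

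The regulators of p53 differed less between groups. Mdm2, at chr7:60719060-60743618 (Rnor_6.0, minus strand), is both an inhibitor and a target of p53. Its level was 43.8, 45.1 and 48.4 CPM in control rats, 44.4, 53.1 and 57.8 CPM in ethanol rats and 43.9, 49.0 and 57.7 CPM in withdrawal rats. In each ethanol-fed group 4 of 6 rats were above all control rats, and the lowest rats of all 3 groups were within 1 CPM of each other. Fitted log2 fold changes against control were 0.11 ± 0.049 in ethanol and 0.15 ± 0.046 in withdrawal, and without surrogate variables the larger was that of ethanol (0.18 ± 0.071, against 0.10 ± 0.071).

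Mdm4, at chr13:49786776-49828780 (Rnor_6.0, minus strand), ranged from 209 to 243 CPM in control rats, 229 to 259 in ethanol rats and 215 to 235 in withdrawal rats. Its mean was higher in ethanol (244 ± 11.2 CPM, SD, n = 6) than in control (227 ± 12.7) and withdrawal (225 ± 7.55), and 4 of 6 withdrawal rats were below all ethanol rats. The log2 fold change of withdrawal against ethanol was -0.12 ± 0.044 and hardly moved without surrogate variables (-0.12 ± 0.043). Against control it was 0.10 ± 0.042 in ethanol and -0.02 ± 0.039 in withdrawal.

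Bax, at chr1:101451801-101457207 (Rnor_6.0, minus strand), encodes the protein that opens the outer mitochondrial membrane in apoptosis. It was nearly level across the groups, with 17.7, 19.9 and 21.2 CPM (lowest, median and highest) in control, 18.4, 20.2 and 21.3 in ethanol and 18.0, 19.9 and 21.9 in withdrawal rats. Its log2 fold change against control was 0.07 ± 0.052 in ethanol and 0.02 ± 0.048 in withdrawal, and an interval of 2 SE around the latter runs from -0.08 to 0.12.

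Ccng1, at chr10:25903925-25910298 (Rnor_6.0, minus strand), encodes cyclin G1, which recruits a phosphatase to MDM2. Control rats had 262, 280 and 320 CPM, ethanol rats 273, 325 and 365 CPM, and withdrawal rats 195, 286 and 361 CPM. Withdrawal had the widest spread (278 ± 60.3 CPM), with withdrawal rats 5 (195) and 1 (224) below all other rats and withdrawal rat 6 (361) above all control rats. Withdrawal rat 5 also had the lowest summed dorsal hippocampal markers (229 CPM, against at least 446 in every other rat). The log2 fold change against control was 0.10 ± 0.054 in ethanol and 0.01 ± 0.051 in withdrawal, and without surrogate variables it was 0.16 ± 0.12 and -0.07 ± 0.12. Over the 18 rats Ccng1 followed the first surrogate variable (r = 0.911).

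Withdrawal and ethanol rats could also be compared within the index set they share, with 2 withdrawal and 6 ethanol rats. The log2 difference within that set was -0.08 for Mdm2, -0.13 for Mdm4, -0.23 for Cdkn1a, -0.01 for Bax, -0.33 for Ccng1, -0.11 for Gadd45a, 1.08 for Gadd45b and 0.36 for Gadd45g. For Gadd45b and Gadd45g the value is set by withdrawal rat 1, and the 4 withdrawal rats of the other set gave 0.14 and 0.07. Gadd45g was at 17.3 CPM in that rat and at 8.34 CPM in withdrawal rat 2, below the ethanol median of 8.53 CPM. With 2 rats on 1 side these are values with no test.

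Across the 18 rats the members did not move as 1 block. By Pearson r of log2 CPM the 3 highest pairs were Cdkn1a and Gadd45a (r = 0.841, rho = 0.862), Mdm2 and Cdkn1a (r = 0.768, rho = 0.647) and Mdm2 and Gadd45a (r = 0.766, rho = 0.542). After the group means were removed these were 0.754, 0.659 and 0.651. The order depends on the measure, since Mdm2 and Ccng1 had r = 0.688, rho = 0.719 and 0.714 after the group means were removed. Gadd45b and Gadd45g had r = 0.692 and 0.707 after the group means were removed, but r = 0.408 without withdrawal rat 1. Bax had r between -0.276 and 0.321 with the other members. These are descriptions over rats that share diet groups, index sets and unequal tissue content.

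Over the 16418 tested genes with a symbol, those most like each member were also listed, as the 3 with the highest r over the 18 rats. For Cdkn1a they were Tsku (0.920), Cyb561 (0.906) and Togaram2 (0.901). For Mdm2 they were LOC102547969 (0.904), Tmed2 (0.901) and Akna (0.892), and those of Mdm4 included Znf235-ps1 (0.790) and Chpt1 (0.779). The closest to Bax were Bcs1l (0.845), Taok2 (0.845) and Ing2 (0.832), and to Ccng1 Gmfb (0.955), Mef2a (0.934) and Dynlt3 (0.931). Gadd45a was most like Tdrd9 (0.902), Atp1b3 (0.867) and Elovl4 (0.860). Gadd45g was most like Ckb (0.932), Icam1 (0.891) and Armc5 (0.875), which kept r of 0.900, 0.841 and 0.848 without withdrawal rat 1. Gadd45b was most like Itpkc (0.948), Kdm6b (0.946) and Bag3 (0.943), and without that rat these fell to 0.659, 0.618 and 0.574. No p is given, since the genes were picked for their r.

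Beyond the 8 members, 130 genes of 9 lists of the p53 pathway were matched and 126 were tested. In withdrawal versus control 5 rose and 2 fell, with a median log2 fold change of 0.03 against 0.00 over all genes (without surrogate variables 0 passed and the median was 0.02). In withdrawal versus ethanol 1 rose and 4 fell (median 0.02), whereas without surrogate variables 5 rose and 3 fell. The calls were 5.56% of the 126 genes in the first comparison and 3.97% in the second, beside 5.41% and 2.72% of all genes tested, so the genes named next are single results and nothing is read from them about the pathway. In ethanol versus control 0 of 126 passed in limma-voom, with 16 at an unadjusted p under 0.05 (beside 12.5% of all genes). There 0 passed in edgeR and 2 in DESeq2, beside 96 and 473 of all genes. Without withdrawal rat 6, 0 of 126 passed in any of the 3 comparisons. Of all genes, 23 then passed in withdrawal versus control, 29 in ethanol versus control and 0 in withdrawal versus ethanol. The withdrawal versus control count was 3 or 4 without any 1 control rat (428 to 604 of all genes). It was 3 without withdrawal rat 1 (534) and 11 without withdrawal rat 2 (1920). The withdrawal versus ethanol count was 0 without ethanol rat 2 or 3 (0 of all genes) and 17 without ethanol rat 5 (1797). In ethanol versus control 4 of 126 passed without ethanol rat 5, beside 258 of all genes. When each of the 18 rats was left out in turn, the withdrawal versus control calls of Aen and Map2k6 were kept in 17 fits, that of Bcl2l1 in 13, those of Usp7 and Dram1 in 8 and that of Ddb2 in 4, and the withdrawal versus ethanol call of Hrk was kept in 7. These lists were drawn up with earlier results of the same rats known.

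Among the core and upstream regulators, Usp7 rose in withdrawal versus control. Usp7, a deubiquitinase that stabilises both MDM2 and p53, was higher by 0.14 ± 0.042 (q = 0.0855), at 231 ± 18.2 CPM against 207 ± 5.57 (SD, n = 6). Ppm1d, a p53-induced phosphatase that switches the response off, differed by 0.03 ± 0.051 (q = 0.778). Cdkn2a, the source of the MDM2 inhibitor ARF, was barely detected, with 30 counts in withdrawal rat 5 (0.808 CPM) and at most 9 in any other rat, and it did not pass (0.71 ± 0.60, q = 0.546).

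Among the 13 cell cycle targets none passed in withdrawal versus control, and Sfn and Btg1 fell in withdrawal versus ethanol. Sfn, which encodes 14-3-3 sigma, was at 1.76 ± 0.801 CPM in ethanol, 0.450 ± 0.128 in withdrawal and 0.744 ± 0.221 in control rats, so that withdrawal was lower than ethanol by -1.53 ± 0.35 (log2 fold change, q = 0.0571). Its ethanol rats were not uniform, with 5 of 6 above all control rats and rat 5 below them all. Btg1, an antiproliferative gene, was lower by -0.23 ± 0.056 (q = 0.0650), but by -0.13 ± 0.064 without surrogate variables (q = 0.291), and 5 of 15 alternatives kept the call. Btg2, its paralogue and an immediate early p53 target, had a mean of 28.8 ± 21.3 CPM in ethanol rats that was carried by ethanol rat 5 (71.8 CPM), and did not pass (0.74 ± 0.24 against control, q = 0.217). Zmat3, a p53-induced RNA-binding protein, differed by 0.03 ± 0.040 in withdrawal versus control (q = 0.706).

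Among 17 apoptosis targets tested, Aen rose in withdrawal versus control. Aen, a p53-induced nuclease, was at 12 ± 1.06 CPM in withdrawal and 9.76 ± 0.677 in control rats (0.29 ± 0.068, q = 0.0385). Bbc3 (PUMA) and Pmaip1 (NOXA), which encode BH3-only proteins that promote apoptosis, did not pass. Bbc3 differed from control by 0.34 ± 0.14 in ethanol (q = 0.326) and by 0.12 ± 0.13 in withdrawal (q = 0.650), and Pmaip1 by -0.15 ± 0.13 (q = 0.688) and 0.20 ± 0.12 (q = 0.355). Tp53inp1 was at 18.4 ± 3.83 CPM in withdrawal against 25.1 ± 6.75 in control rats and did not pass (-0.41 ± 0.19, q = 0.249). Among the 13 partners of Bax in the Bcl-2 family, the survival gene Bcl2l1 rose in withdrawal versus control (0.19 ± 0.051, q = 0.0590, 89.3 ± 5.99 against 77.7 ± 4.11 CPM). Hrk, a neuronal BH3-only gene, was lower in withdrawal than in ethanol (-0.29 ± 0.078, q = 0.0859), a call that was lost without surrogate variables (-0.25 ± 0.099, q = 0.196).

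Among the 10 DNA repair targets, Ddb2 fell in withdrawal versus control (-0.29 ± 0.089, q = 0.0952), at 3.63 ± 0.608 against 4.2 ± 0.357 CPM. Its withdrawal rats were not uniform either, with 4 of 6 below all control rats and rat 5 above them (4.82 CPM). Rrm2b, the p53-induced subunit of ribonucleotide reductase, differed by -0.12 ± 0.056 (q = 0.249). Among the 11 metabolic, antioxidant and autophagy targets Dram1, a lysosomal protein, rose (0.62 ± 0.18, q = 0.0728, 2.49 ± 0.821 against 1.52 ± 0.126 CPM). The sestrins Sesn1 (-0.24 ± 0.090, q = 0.162) and Sesn2 (0.05 ± 0.060, q = 0.665) did not pass in this fit (limma-voom). Sesn1 was called by DESeq2 and in the fit of only the 2 groups.

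None of the 10 secreted and surface targets passed in any comparison, nor did any of the 19 CDK inhibitors, cyclins and CDKs (limma-voom). Among the 11 stress MAP kinases of the Gadd45 proteins, Map2k6, which phosphorylates p38, fell in withdrawal. It was at 18.3 ± 1.19 CPM in withdrawal, 22.3 ± 2.01 in control and 24.1 ± 2.96 in ethanol rats, a log2 fold change of -0.28 ± 0.059 against control (q = 0.0259) and -0.29 ± 0.066 against ethanol (q = 0.0570). Map3k4, the kinase that GADD45 proteins bind, differed from control by -0.05 ± 0.063 in withdrawal (q = 0.687) and by -0.02 ± 0.067 in ethanol (q = 0.939). Ppm1d, Zmat3, Bbc3 and Sesn1 each overlap another gene on the same strand, so their counts are less certain.

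**Figure D4:**
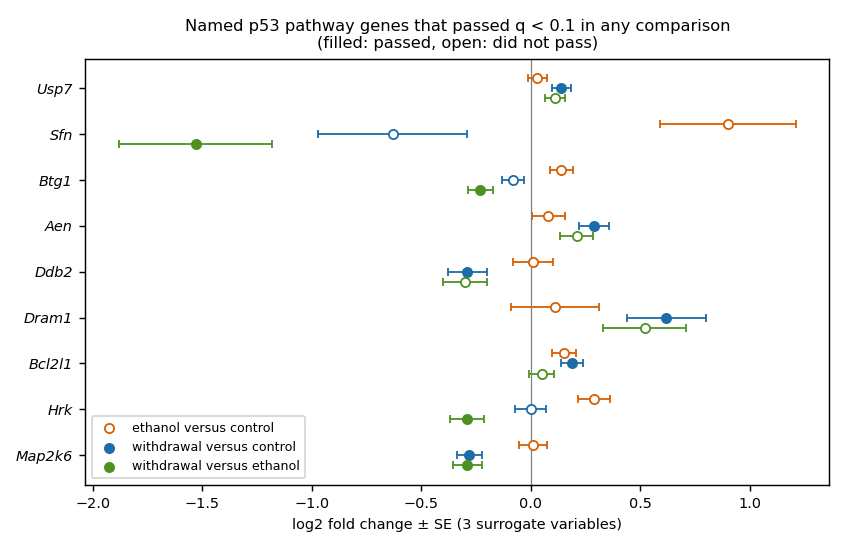
Log2 fold change ± SE of p53 pathway genes named in the text that passed q < 0.1 in any comparison, from the fit with 3 surrogate variables (filled, passed; open, did not pass; orange, ethanol versus control; blue, withdrawal versus control; green, withdrawal versus ethanol). Map2k6 lies at -0.28 and -0.29 in the comparisons of withdrawal and at 0.01 in ethanol versus control, and Sfn has the widest span, from -1.53 to 0.90.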

How the data were processed

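RNA from the dorsal hippocampus of 18 rats (6 control, 6 ethanol, 6 withdrawal, grouped by the sample labels) was sequenced in pairs by the authors. The deposited values are raw counts per gene, which the authors made with STAR 2.5.2a and featureCounts 1.5.0 on the Rnor_6.0 genome, after quality checks with FastQC 0.11.4. Of 38445 gene IDs, 29322 were paired with a symbol through a RefSeq table. Genes above 0.5 CPM in at least 1 rat (17853) were kept and scaled by TMM. sva 3.50.0 estimated 3 surrogate variables, and limma 3.58.1 (voom) fitted all 3 groups in 1 model in R 4.3.3, with Benjamini-Hochberg adjustment per comparison (q) and a threshold of 0.1. edgeR 4.0.16 and DESeq2 1.42.0 served as alternatives. The procedure was first run on simulated data. The hidden variation there was made unrelated to the groups, so that run is no check of surrogate variables that differ between groups. Both comparisons with control use the same control rats. Nothing in the labels names separate litters or cohorts, so q-values measure the spread between these rats only. Totals of 30873228 to 42679748 counts per rat gave 167 counts for the lowest value of a member and 14924 for the highest.

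The members and all gene lists were chosen with earlier results of these data known. Genes named in the text are the 8 members, every other p53 pathway gene that passed in at least 1 comparison, a fixed set of pathway genes given whatever their values, and the 3 genes most like each member. Some genes that this rule names are not reported here, while counts over gene lists include them. Promoter windows came from RefSeq on GRCr8 and gene positions from Rnor_6.0.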

Additional observations from a re-analysis of the deposited data

Results flagged for a closer look

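In each group of 6 rats, the highest or lowest value was examined for a gap to its nearest neighbour, as a share of the group's range, above Dixon's 95% critical value. Of 87 groups of values 5 had such a gap, and chance gives about 1 in 20. Gadd45b was high in withdrawal rat 1 at 51.4 CPM, with the nearest rat at 15.8 CPM, a gap of 0.903 of the range. Gadd45b was also high in ethanol rat 5 at 17.6 CPM, with the nearest at 12.8 CPM (0.659). The same ethanol rat had Btg2 at 71.8 CPM, with the nearest at 24.0 CPM (0.843). Withdrawal rat 5 had Cdkn2a at 0.808 CPM, with the nearest at 0.212 CPM (0.738), and Ddb2 at 4.82 CPM, with the nearest at 3.69 CPM (0.688).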

How the results depend on the processing

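The counts of genes passing q < 0.1 depended on the processing. None of the members and other pathway genes named in the text changed direction, under any alternative, in a comparison in which it was called. Fold changes of the remaining genes were not compared across alternatives. In contrast, uncalled values could change sign. Examples are Cdkn1a in withdrawal versus ethanol (0.18, and -0.32 without surrogate variables) and Gadd45b in withdrawal versus control (0.54, and -0.01 without withdrawal rats 4 and 5). In withdrawal versus control, with 965 genes, 3 members and 7 other pathway genes called, the counts were 41, 0 and 0 without surrogate variables and 33, 0 and 0 in edgeR without them. With 2 surrogate variables 594 genes passed. DESeq2 called 1624 genes and 12 other pathway genes, no filter on low counts left 486, 1 and 3, and q < 0.05 left 370, 1 and 3. A fit of only those 2 groups called 11 other pathway genes and 2 members, and lost the call of Cdkn1a. In ethanol versus control, with 88 genes called, the counts of genes were 50 without surrogate variables, 221 with 4, 473 in DESeq2, 9 with no filter, 10 at q < 0.05 and 28 in the fit of 2 groups, and other pathway genes numbered 1 with 4 surrogate variables and 2 in DESeq2. In withdrawal versus ethanol, with 486 genes and 5 other pathway genes called, the counts were 260 and 2 with 2 surrogate variables, 896 and 10 with 4, 1176 and 10 in DESeq2, 166 and 1 with no filter, 112 and 1 at q < 0.05, and 0 and 0 in the fit of 2 groups. Without surrogate variables 8 other pathway genes passed there (5 higher and 3 lower), in limma-voom and in edgeR, beside 621 and 682 of all genes.

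With the 3 rats of highest choroid plexus sums left out, an alternative chosen after seeing the data, the counts of genes, members and other pathway genes were 0, 0 and 0 in withdrawal versus control, 0 genes in ethanol versus control, and 1 gene and 0 other pathway genes in withdrawal versus ethanol. With the 2 rats of lowest sums left out, also chosen after seeing the data, they were 27, 0 and 0, then 135 genes and 1 other pathway gene, then 213 genes and 2 other pathway genes. These fits hold fewer rats. When 1 rat was left out, the counts ranged from 23 to 1920 genes, 0 to 3 members and 0 to 11 other pathway genes in withdrawal versus control, from 0 to 258, 0 to 0 and 0 to 4 in ethanol versus control, and from 0 to 1797, 0 to 1 and 0 to 17 in withdrawal versus ethanol. The cause of these changes was not tested.

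The groups share replicate numbers, and nothing in the labels says whether these mark the pairs of the pair feeding. Deviations of same-numbered rats from their group means had r from -0.325 to 0.383. Rats of different numbers were not compared, so these values cannot decide whether the numbers mark pairs. With the replicate block and no surrogate variables 0 genes, 0 members and 0 other pathway genes passed in withdrawal versus control, 0 genes in ethanol versus control, and 14 genes and 0 other pathway genes in withdrawal versus ethanol. With the replicate block and 3 surrogate variables 26 genes passed in ethanol versus control, and 1 gene and 0 other pathway genes in withdrawal versus ethanol, while in withdrawal versus control 2 members were called and the call of Mdm2 was lost.

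Limits are the 6 rats per group, the confounding of index set with diet, the unequal choroid plexus and thalamic content, and the low counts of Cdkn2a and Sfn (at most 30 and 92 per rat).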
